A study of Mus musculus with 4 samples.

Results

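The p53 target genes are p53's own gene and genes whose transcription p53 activates, 32 in all. They were chosen by gene symbol, through probe sets that the platform annotation assigns to a single gene. In all, 28 of the 32 were analysed, of 19938 genes on the array. The only Cdkn1a probe set is also assigned to a second gene and was left out, and Trp53, Bax and Fdxr were not analysed here. The members were sorted by role into feedback (5 analysed), arrest (4), apoptosis (11), repair (5), and metabolism and other (3).

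Fibroblasts grown from mouse embryos (MEFs), a connective tissue cell type, were kept unsynchronised in their medium for 20 hours. The groups were NFAT5/TonEBP knockout cells in hypertonic medium, the same genotype in isotonic medium, wild-type cells in hypertonic medium and wild-type cells in isotonic medium. NaCl brought the hypertonic medium to 450 mosmol/kg, and the labels state no osmolality for the isotonic medium. NFAT5, also called TonEBP, is the transcription factor that switches on osmolyte genes in hypertonic medium. Each group was a pool of 4 samples read on 1 Affymetrix Mouse Gene 1.0 ST array, so no spread between replicates could be measured and no test was made. The sources used here do not say which part of Nfat5 was deleted, nor how many embryos, lines or clones were used.

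p53 is a transcription factor that is held at a low level by the ubiquitin ligase Mdm2 and accumulates when DNA is damaged or the cell is otherwise stressed. It then activates genes that stop the cell cycle, repair DNA, start apoptosis or adjust metabolism, together with genes such as Mdm2 that limit p53 itself. Raised NaCl is known to cause DNA breaks in cultured cells and to activate p53, and embryonic fibroblasts are a classic system for the p53 response.

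Signals are log2 values as the authors deposited them, and a difference of 1 on this scale is 2-fold. The dim limit of an array was the median signal of its single-gene probe sets, 5.38 to 5.44. Genes that passed it on 1 or more of the arrays compared are called measured. Signals below that limit mix background with expression. The 4 arrays correlated between 0.979 and 0.989 across probe sets, with the lowest value between the 2 hypertonic arrays. Nfat5 read 8.24 (knockout, hypertonic), 8.03 (knockout, isotonic), 8.19 (wild-type, hypertonic) and 7.74 (wild-type, isotonic). It was not lower in the cells labelled knockout, which are therefore called knockout-labelled. Of 10 fibroblast markers 8 were above the dim limit on every array, and Dcn and Lum were below it on every array. For genes read by 2 probe sets, the SD of a difference between arrays was 0.15 to 0.21 per probe set over the 4 comparisons between arrays, and 0.23 for the difference of responses. These SDs describe measurement within these arrays, not variation between cultures.

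Many p53 target genes were highest on the knockout-labelled hypertonic array or lowest on the wild-type hypertonic array. Of the 27 members above the dim limit on at least 1 array, 16 were highest in knockout-labelled hypertonic cells, against 27.6% of all 10542 measured genes. In wild-type hypertonic cells 18 were lowest, against 28.3% of all measured genes. Of the others, 4 members were highest in knockout-labelled isotonic cells (28.6% of measured genes), 2 in wild-type hypertonic cells (23.2%) and 5 in wild-type isotonic cells (20.5%). Lowest were 5 members in knockout-labelled hypertonic cells (37.8%), 3 in knockout-labelled isotonic cells (15.6%) and 1, Trp53inp1, in wild-type isotonic cells (18.2%). The knockout-labelled response was above 0 and the wild-type response below 0 for 17 members, against 21.0% of measured genes. The opposite pattern held for 2 members, Sesn1 and Ddb2, against 27.3% of measured genes. Each response was also past the SD between probe sets for 9 of the 17 (6.26% of measured genes) and for both of the 2 (10.4%). Bbc3 and Eda2r are among the 16 and passed the dim limit only through the knockout-labelled hypertonic array, where they were high, so the counts were also taken without a limit. Over all 28 analysed members 16 were then highest in knockout-labelled hypertonic cells, against 33.1% of all 19938 genes, and 19 were lowest in wild-type hypertonic cells, against 25.3%. The knockout-labelled response was then above 0 and the wild-type response below 0 for 18 members, against 28.6% of all genes. The opposite pattern held for 2, against 20.1%.

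**Figure D1:**
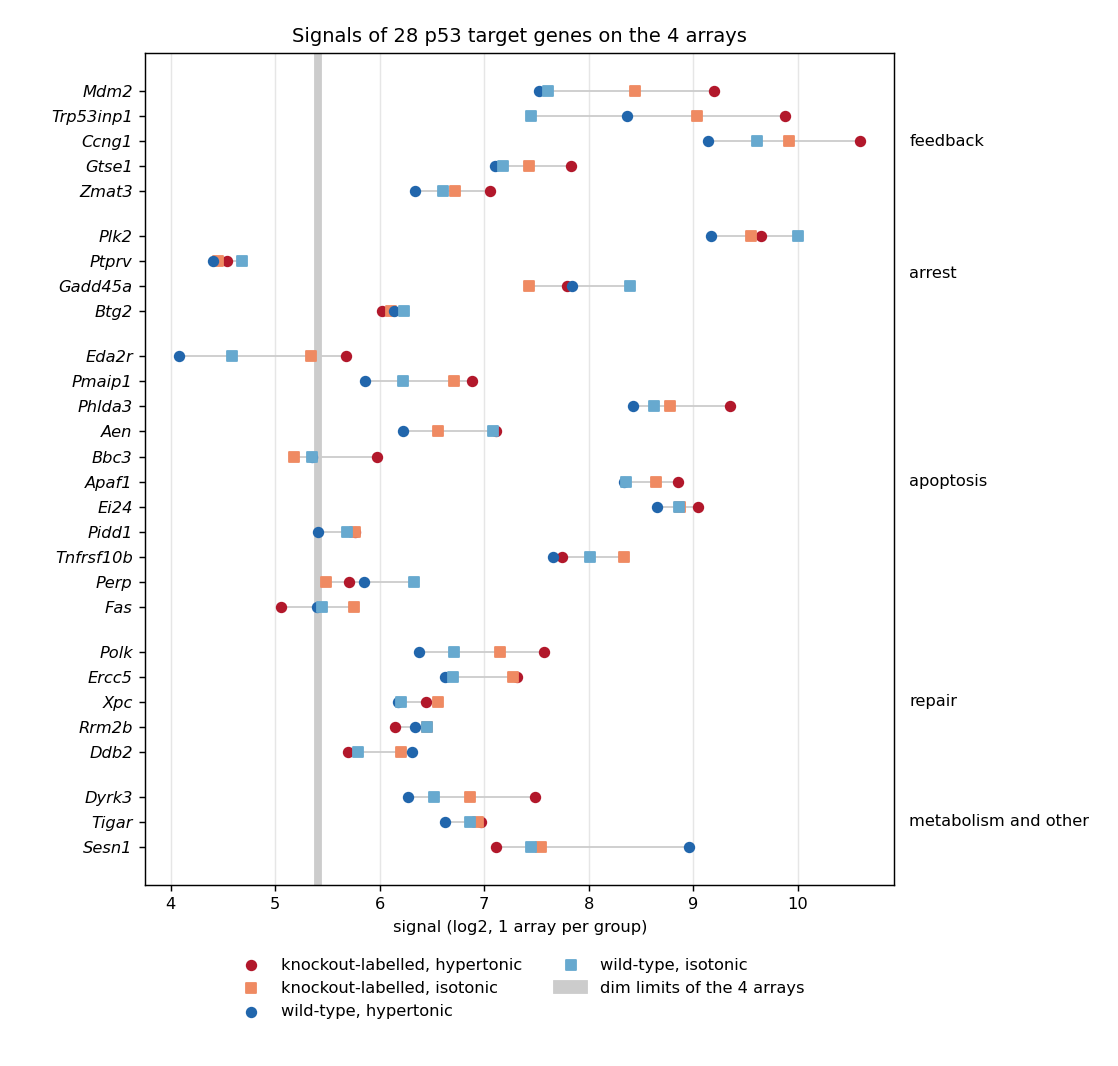
Log2 signal (horizontal axis) of the 28 analysed p53 target genes on the 4 arrays, 1 point per array, grouped by role and ordered within a role by the hypertonic genotype difference. Dark red circles (knockout-labelled, hypertonic) lie at the right end for Mdm2, Ccng1 and Trp53inp1, whereas Sesn1 is highest, at 8.96, on the wild-type hypertonic array (dark blue); the grey band marks the dim limits.

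Promoter windows were read because Mdm2, Ccng1 and Aen were highest in knockout-labelled hypertonic cells and Sesn1 was lowest there. The windows are RefSeq sequence (GRCm38.p6) from 250 bases before to 50 bases after an annotated start, and 19 of the 28 analysed members had at least 1, 25 windows in all. A p53 response element is a pair of copies of a degenerate 10-letter pattern, the p53 decamer. The windows of Mdm2 (chr10:117710709-117711008, minus strand), Ccng1 (chr11:40755237-40755536, minus strand), Aen (chr7:78895677-78895976, plus strand) and the downstream start of Sesn1 (chr10:41887189-41887488, plus strand) are shown, as members with the largest genotype differences in hypertonic medium or differences of responses among those whose windows hold a decamer. Capitals mark the decamer.
Mdm2: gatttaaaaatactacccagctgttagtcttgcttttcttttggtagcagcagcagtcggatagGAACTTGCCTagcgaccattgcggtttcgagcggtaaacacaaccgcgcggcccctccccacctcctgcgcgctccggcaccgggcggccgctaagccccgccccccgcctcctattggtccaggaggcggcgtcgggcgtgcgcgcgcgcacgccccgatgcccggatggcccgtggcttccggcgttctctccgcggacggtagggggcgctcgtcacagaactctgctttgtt
Ccng1: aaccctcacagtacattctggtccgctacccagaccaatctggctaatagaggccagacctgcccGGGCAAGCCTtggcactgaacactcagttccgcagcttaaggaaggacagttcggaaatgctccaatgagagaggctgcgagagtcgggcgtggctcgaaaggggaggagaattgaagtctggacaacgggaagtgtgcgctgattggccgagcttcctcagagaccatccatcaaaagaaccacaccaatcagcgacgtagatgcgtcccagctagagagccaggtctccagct
Aen: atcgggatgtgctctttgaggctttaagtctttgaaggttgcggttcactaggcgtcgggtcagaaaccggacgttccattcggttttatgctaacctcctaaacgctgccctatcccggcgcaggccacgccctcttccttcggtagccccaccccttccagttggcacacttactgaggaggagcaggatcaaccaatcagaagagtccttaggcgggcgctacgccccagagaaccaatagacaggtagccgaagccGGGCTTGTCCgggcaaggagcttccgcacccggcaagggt
Sesn1: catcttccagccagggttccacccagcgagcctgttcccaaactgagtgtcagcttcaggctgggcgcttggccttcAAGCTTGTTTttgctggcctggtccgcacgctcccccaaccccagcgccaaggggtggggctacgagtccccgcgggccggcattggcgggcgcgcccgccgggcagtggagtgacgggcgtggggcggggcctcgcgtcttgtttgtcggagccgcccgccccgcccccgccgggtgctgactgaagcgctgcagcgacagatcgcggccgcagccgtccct

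Among the feedback genes, Mdm2, the ubiquitin ligase that marks p53 for degradation, was higher in knockout-labelled cells, past 2-fold in hypertonic medium only. It read 9.19 (knockout-labelled, hypertonic), 8.44 (knockout-labelled, isotonic), 7.52 (wild-type, hypertonic) and 7.61 (wild-type, isotonic). Both knockout-labelled arrays lay above both wild-type arrays. The genotype difference was 1.67 in hypertonic medium (3.19-fold, rank 57 from the top of 10374 measured genes) and 0.83 in isotonic medium. Hypertonic medium went with a difference of 0.75 in knockout-labelled cells and of -0.09 in wild-type cells, where it was within the probe set SD of 0.15.

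Ccng1 encodes cyclin G1, which brings a phosphatase to Mdm2. Its signal was 10.60 (knockout-labelled, hypertonic), 9.91 (knockout-labelled, isotonic), 9.14 (wild-type, hypertonic) and 9.60 (wild-type, isotonic), so that both knockout-labelled arrays lay above both wild-type arrays. The medium had opposite signs in the genotypes, 0.68 in knockout-labelled and -0.46 in wild-type cells. That gave a difference of responses of 1.14 and a genotype difference in hypertonic medium of 1.45 (2.74-fold, rank 88).

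Trp53inp1, a stress protein that promotes the activating phosphorylation of p53 and takes part in autophagy, was the exception among the feedback genes. It read 9.87 (knockout-labelled, hypertonic), 9.03 (knockout-labelled, isotonic), 8.36 (wild-type, hypertonic) and 7.45 (wild-type, isotonic). Hypertonic medium went with a higher signal in both genotypes, by 0.84 in knockout-labelled and 0.92 in wild-type cells. The genotype difference was also alike in the media, 1.51 in hypertonic and 1.58 in isotonic medium (2.99-fold, rank 46 of 10191), so its difference of responses was -0.07.

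Gtse1, a microtubule-binding protein that moves p53 out of the nucleus, and Zmat3, a zinc finger RNA-binding protein, followed the Mdm2 pattern at a smaller size. Gtse1 read 7.83 (knockout-labelled, hypertonic), 7.43 (knockout-labelled, isotonic), 7.10 (wild-type, hypertonic) and 7.18 (wild-type, isotonic). Zmat3 read 7.05 (knockout-labelled, hypertonic), 6.72 (knockout-labelled, isotonic), 6.34 (wild-type, hypertonic) and 6.60 (wild-type, isotonic). For both genes, the knockout-labelled arrays lay above the wild-type arrays. All 5 analysed feedback genes were at least 1.5-fold higher in knockout-labelled than in wild-type hypertonic cells, with a median of 1.45, against 8.72% of measured genes.

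The arrest genes behaved differently from the feedback genes in isotonic medium, where Plk2 and Gadd45a were higher in wild-type cells. Gadd45a, a stress sensor that inhibits the G2 cyclin-dependent kinase, read 7.79 (knockout-labelled, hypertonic), 7.43 (knockout-labelled, isotonic), 7.84 (wild-type, hypertonic) and 8.40 (wild-type, isotonic). Its genotype difference was -0.97 in isotonic medium and -0.04 in hypertonic medium. The isotonic value was just inside 2-fold as deposited and just past it after quantile normalization (-1.03), cyclic loess (-1.01) or centring on the median (-1.001).

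Plk2, a polo-like kinase that acts in centriole duplication, was bright on every array. Its signals were 9.65 (knockout-labelled, hypertonic), 9.55 (knockout-labelled, isotonic), 9.17 (wild-type, hypertonic) and 10.004 (wild-type, isotonic). The wild-type arrays were the highest and the lowest of the 4, with a wild-type response of -0.83 (rank 102 from the bottom of 10134) beside 0.10 in knockout-labelled cells. Btg2, an antiproliferative partner of the mRNA deadenylase complex, spanned only 6.02 (knockout-labelled, hypertonic) to 6.24 (wild-type, isotonic). Ptprv, a receptor-type tyrosine phosphatase, was below the dim limit on all 4 arrays, from 4.41 (wild-type, hypertonic) to 4.68 (wild-type, isotonic).

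Of the 10 apoptosis genes measured in the hypertonic genotype comparison, 9 were above 0 and 5 were at least 1.5-fold higher in knockout-labelled cells, against 49.4% and 8.72% of all measured genes. Their median was 0.57. Bbc3, Eda2r and Pidd1 counted as measured through the knockout-labelled array alone, where they were higher. Fas was below the dim limit on both arrays of this comparison. Pmaip1 (Noxa), a BH3-only protein that antagonises Mcl1, read 6.88 (knockout-labelled, hypertonic), 6.71 (knockout-labelled, isotonic), 5.86 (wild-type, hypertonic) and 6.22 (wild-type, isotonic). Bbc3 (Puma), a BH3-only protein that releases Bax and Bak, read 5.97 (knockout-labelled, hypertonic), 5.18 (knockout-labelled, isotonic), 5.35 (wild-type, hypertonic) and 5.35 (wild-type, isotonic). Bbc3 was above the dim limit on the knockout-labelled hypertonic array alone. Its response of 0.79 in knockout-labelled cells therefore starts from background and is poorly determined. Apaf1, the scaffold of the apoptosome, read 8.85 (knockout-labelled, hypertonic), 8.64 (knockout-labelled, isotonic), 8.34 (wild-type, hypertonic) and 8.36 (wild-type, isotonic), with a wild-type response of -0.02.

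Eda2r encodes the ectodysplasin A2 receptor, a death-domain-free member of the TNF receptor family, and lies on the X chromosome. It read 5.68 (knockout-labelled, hypertonic), 5.34 (knockout-labelled, isotonic), 4.08 (wild-type, hypertonic) and 4.59 (wild-type, isotonic). It too was above the dim limit only in knockout-labelled hypertonic cells, so the hypertonic genotype difference of 1.60 is poorly determined. The X-inactivation RNA Xist read 3.16 (knockout-labelled, hypertonic), 3.75 (knockout-labelled, isotonic), 9.31 (wild-type, hypertonic) and 8.99 (wild-type, isotonic). Both knockout-labelled arrays were near background for Xist and both wild-type arrays far above it, and the part of this difference in the Eda2r values, or in those of the other members, was not tested.

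Aen, a nuclease that degrades DNA and RNA in apoptosis, had the largest positive difference of responses among the members, 1.41 (rank 38 of 10542 measured genes). It read 7.11 (knockout-labelled, hypertonic), 6.56 (knockout-labelled, isotonic), 6.22 (wild-type, hypertonic) and 7.08 (wild-type, isotonic). The knockout-labelled hypertonic and wild-type isotonic signals were nearly equal, and the other arrays were lower. Its wild-type response, -0.86, was the lowest of all measured members, at rank 89 from the bottom.

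Phlda3, a pleckstrin homology protein that keeps Akt from the membrane, read 9.35 (knockout-labelled, hypertonic), 8.78 (knockout-labelled, isotonic), 8.42 (wild-type, hypertonic) and 8.63 (wild-type, isotonic). Ei24, an endoplasmic reticulum protein, read 9.04 (knockout-labelled, hypertonic), 8.87 (knockout-labelled, isotonic), 8.65 (wild-type, hypertonic) and 8.86 (wild-type, isotonic). Both had the order seen for Mdm2 at the top and the bottom, knockout-labelled hypertonic highest and wild-type hypertonic lowest. Perp, a tetraspan membrane protein of desmosomes and apoptosis, was highest in wild-type isotonic cells, at 6.33, and lay between 5.49 and 5.85 on the other arrays. Pidd1, the scaffold that activates caspase-2, spanned 5.41 (wild-type, hypertonic) to 5.77 (knockout-labelled, isotonic), close to the dim limit.

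Fas and Tnfrsf10b, both death receptor genes, were lower in hypertonic than in isotonic knockout-labelled cells. Fas read 5.06 (knockout-labelled, hypertonic), 5.76 (knockout-labelled, isotonic), 5.40 (wild-type, hypertonic) and 5.45 (wild-type, isotonic), near or below the dim limit throughout. Tnfrsf10b, the receptor for the death ligand TRAIL, read 7.75 (knockout-labelled, hypertonic), 8.33 (knockout-labelled, isotonic), 7.65 (wild-type, hypertonic) and 8.01 (wild-type, isotonic). Its response was negative in both genotypes, -0.59 in knockout-labelled and -0.36 in wild-type cells.

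Of the repair genes, Polk, a translesion DNA polymerase, and Ercc5, the endonuclease that cuts beside a damaged stretch in nucleotide excision repair, were higher in knockout-labelled cells. Polk read 7.57 (knockout-labelled, hypertonic), 7.15 (knockout-labelled, isotonic), 6.38 (wild-type, hypertonic) and 6.71 (wild-type, isotonic), a genotype difference of 1.19 in hypertonic medium (2.28-fold). Ercc5 read 7.31 (knockout-labelled, hypertonic), 7.28 (knockout-labelled, isotonic), 6.63 (wild-type, hypertonic) and 6.70 (wild-type, isotonic). It thus differed by genotype, 0.68 in hypertonic and 0.57 in isotonic medium, and hardly by medium.

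Ddb2, which recognises ultraviolet damage, had hypertonic responses of the reverse sign to those of Ccng1 in each genotype. It read 5.70 (knockout-labelled, hypertonic), 6.20 (knockout-labelled, isotonic), 6.31 (wild-type, hypertonic) and 5.79 (wild-type, isotonic). Its response was -0.51 in knockout-labelled and 0.52 in wild-type cells, so that the difference of responses was -1.03, or -0.95 after quantile normalization and -0.97 after centring. Xpc, its partner in damage recognition, and Rrm2b, the ribonucleotide reductase subunit that supplies nucleotides for repair, varied little. Xpc spanned 6.18 (wild-type, hypertonic) to 6.56 (knockout-labelled, isotonic) and Rrm2b 6.15 (knockout-labelled, hypertonic) to 6.46 (wild-type, isotonic).

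Sesn1, a sestrin that restrains the growth kinase mTORC1 and oxidative damage, stood apart from the other members. It read 7.12 (knockout-labelled, hypertonic), 7.55 (knockout-labelled, isotonic), 8.96 (wild-type, hypertonic) and 7.45 (wild-type, isotonic). The wild-type hypertonic array was well above the other arrays, which lay within 0.43 of each other. Its wild-type response was 1.51 (2.85-fold, rank 38 of 10134), its knockout-labelled response -0.43, and the difference of responses -1.94 (rank 71 from the bottom of 10542).

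Dyrk3, a kinase that dissolves stress granules, had the Mdm2 order, at 7.48 (knockout-labelled, hypertonic), 6.86 (knockout-labelled, isotonic), 6.27 (wild-type, hypertonic) and 6.52 (wild-type, isotonic). Its genotype difference in hypertonic medium was 1.21 (2.32-fold, rank 158). Tigar, a phosphatase that lowers glycolytic flux, spanned 6.63 (wild-type, hypertonic) to 6.97 (knockout-labelled, hypertonic).

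**Figure D2:**
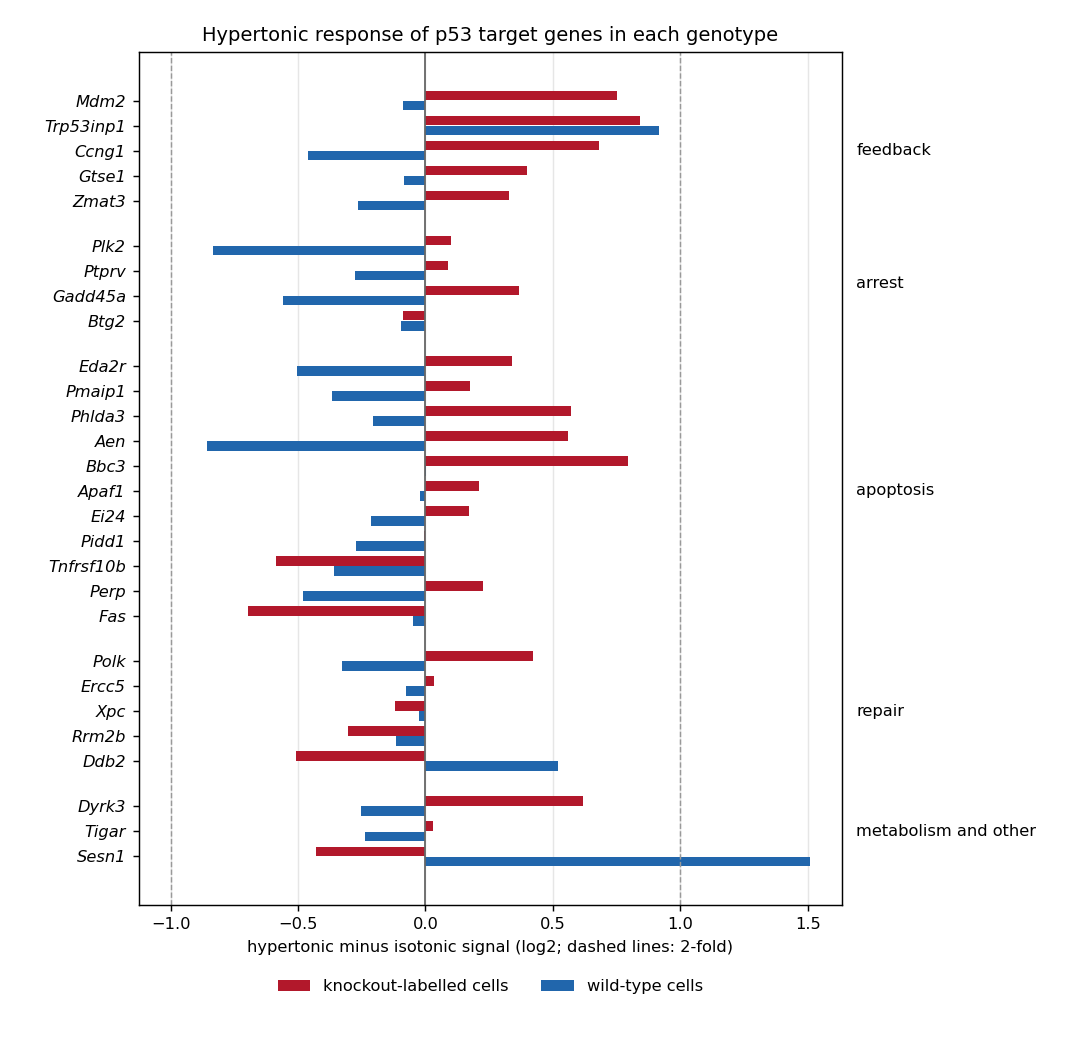
Hypertonic minus isotonic log2 signal (horizontal axis) of each p53 target gene in knockout-labelled (red, upper bar) and wild-type (blue, lower bar) cells, with dashed lines at 2-fold. Most red bars point right and most blue bars left, while Sesn1 and Ddb2 show the reverse and Trp53inp1 points right in both genotypes.

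The hypertonic responses of 19 of the 27 members had opposite signs in the genotypes, and 8, among them Trp53inp1 and Tnfrsf10b, had the same sign in both. Of the 19, 17 were above 0 in knockout-labelled and below 0 in wild-type cells, against 21.0% of all 10542 measured genes. The reverse held for 2, against 27.3%. For 11 of the 19 both responses were past the SD between probe sets. In knockout-labelled cells 19 of 27 measured members were above 0, against 39.9% of the 10277 measured genes, with a median of 0.21 beside -0.09 over all measured genes. None was at least 2-fold higher, as were 0.379% of measured genes, and none was at least 2-fold lower, as were 3.08%. The members ran from -0.70 (Fas) to 0.84 (Trp53inp1), and Trp53inp1, Bbc3, Mdm2, Ccng1 and Dyrk3 were at least 1.5-fold higher, against 4.28% of measured genes. Fas and Tnfrsf10b were at least 1.5-fold lower, against 12.0%. Scaling moved the median of all genes by about as much as 0.10 here: after quantile normalization it was 0.01 and the members' median 0.30. Bbc3 and Eda2r counted as measured through the hypertonic array alone, where they were high. Fas counted through the isotonic array alone, where it was higher. Without a limit, 20 of the 28 analysed members were above 0, against 54.1% of all 19938 genes. The members' median was then 0.19 beside 0.03 over all genes.

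In wild-type cells 22 of 25 measured members were below 0, against 53.9% of the 10134 measured genes. Their median was -0.21 beside -0.02 over all measured genes. Sesn1 was the 1 member at least 2-fold higher, against 1.01% of measured genes, and none was at least 2-fold lower, against 0.414%. Trp53inp1 and Ddb2 were the other members above 0, and Aen and Plk2 were at least 1.5-fold lower, against 3.30% of measured genes. At least 1.5-fold higher were Sesn1 and Trp53inp1, against 4.12%. Fas and Pidd1 counted as measured through the isotonic array alone, where they were higher. Over all 28 analysed members without a limit, 24 were below 0 and 4 above 0. Of all 19938 genes, 45.5% were above 0. The members' median was then -0.23 beside -0.03 over all genes. Across the 27 members the responses of the genotypes, which share no array, correlated at -0.23 (Pearson's r) and -0.17 (Spearman's rho), or -0.05 and -0.09 without Sesn1, beside -0.02 and 0.01 over all 10542 measured genes. Members share their libraries, so these values only describe the pools.

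Among the 5 comparisons, the members' median was farthest from 0 between the genotypes in hypertonic medium. Comparing knockout-labelled with wild-type hypertonic cells, 7 of 26 measured members were at least 2-fold higher, against 2.57% of the 10374 measured genes. They were Mdm2, Eda2r, Trp53inp1, Ccng1, Dyrk3, Polk and Pmaip1. Sesn1 was the 1 member at least 2-fold lower, at -1.84 (3.58-fold), against 6.43% of measured genes. The members' median was 0.57 beside -0.01 over all measured genes, with 20 above 0 (49.4% of measured genes) and 6 below 0 (50.5%). At least 1.5-fold higher were 13 members, against 8.72% of measured genes. Besides Sesn1, Ddb2 was at least 1.5-fold lower, against 15.1% of measured genes. Since a member can count as measured through the group in which it is high, the same was taken over all 28 analysed members, where 7 were 2-fold higher, 21 were above 0 and the median was 0.50. Over all 19938 genes on the array without a limit, 1.46% were 2-fold higher and 54.7% were above 0.

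Most fibroblast markers were lower in this comparison. Of the 8 above the dim limit, Col1a1, Col1a2, Col3a1, Pdgfra and Pdgfrb were at least 2-fold lower in knockout-labelled than in wild-type hypertonic cells, against 6.43% of measured genes. Thy1 (-0.62) and Vim (-0.07) were lower by less, and Fn1 was higher (0.23). The summed linear signal of the 10 markers was 12570 (knockout-labelled, hypertonic), 17180 (knockout-labelled, isotonic), 20450 (wild-type, hypertonic) and 19500 (wild-type, isotonic), and their part in the p53 target values was not tested. In isotonic medium Thy1 was the 1 of the 8 at least 2-fold lower, at -1.54. In pooled cells, fewer cells of a type and less RNA per cell cannot be told apart. The 7 endothelial markers were below the dim limit on every array, and at most 1 of 6 macrophage and blood markers, 1 of 6 skeletal muscle markers and 1 of 5 adipocyte markers was above it. Of 7 epithelial markers 3 or 4 were above it, with sums of 396 (knockout-labelled, hypertonic), 349 (knockout-labelled, isotonic), 344 (wild-type, hypertonic) and 375 (wild-type, isotonic), and Epcam, Krt5 and Krt14 were below it throughout. Of 4 neural markers Tubb3 and Nes were above it, and Sox10 and Gfap were below it throughout. In knockout-labelled against wild-type cells Tubb3 and Nes were lower in hypertonic medium, at -1.07 and -0.41, and in isotonic medium, at -2.09 and -1.34. The sums of the neural list were 280 (knockout-labelled, hypertonic), 194 (knockout-labelled, isotonic), 395 (wild-type, hypertonic) and 503.5 (wild-type, isotonic).

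**Figure D3:**
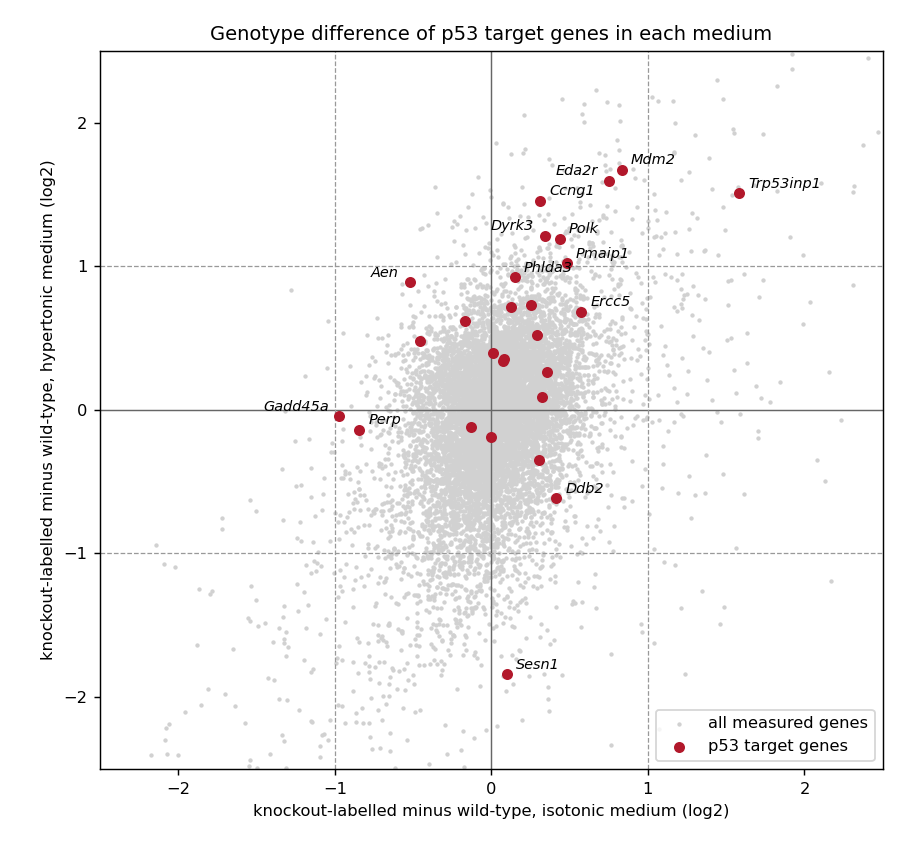
Knockout-labelled minus wild-type log2 signal in isotonic (horizontal) and hypertonic medium (vertical) for 27 p53 target genes (red) and all 10542 genes above the dim limit on an array (grey), of which 66 lie outside the axes. Most red points lie above the horizontal zero line, 7 of them above the dashed 2-fold line, and Sesn1 lies at -1.84.

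In isotonic medium the genotypes were closer. Trp53inp1 was the 1 of 25 measured members at least 2-fold higher in knockout-labelled cells, against 1.59% of the 10191 measured genes, and none was at least 2-fold lower, against 1.28%. Above 0 were 19 members (54.8% of measured genes) and below 0 were 6 (45.2%), and the median was 0.25 beside 0.03 over all measured genes. With Mdm2 (0.83), 2 members were at least 1.5-fold higher, against 4.92%, and Gadd45a (-0.97) and Perp (-0.84) were at least 1.5-fold lower, against 3.87%. Across the 27 members the genotype differences in the media, which share no array, correlated at 0.44 (Pearson's r) and 0.51 (Spearman's rho), beside 0.50 and 0.36 over all 10542 measured genes.

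For the difference of responses, knockout-labelled minus wild-type, Aen and Ccng1 were at least 2-fold positive, against 1.41% of the 10542 measured genes, and Sesn1 and Ddb2 at least 2-fold negative, against 5.53%. The median of the 27 measured members was 0.48 beside -0.06 over all measured genes, with 20 above 0 (44.5% of measured genes) and 7 below 0 (55.5%). By role the medians were 0.59 for feedback, 0.93 for arrest, 0.54 for apoptosis, -0.09 for repair and 0.27 for metabolism and other, over 3 to 11 genes each. At least 1.5-fold positive were 12 members, against 7.76% of measured genes, and at least 1.5-fold negative were Sesn1, Ddb2 and Fas, against 15.4%. Bbc3 and Eda2r are among the 12 and counted as measured through the knockout-labelled hypertonic array alone, where they were high. Fas, among the negative ones, was below the dim limit on both hypertonic arrays and counted through the isotonic arrays. Without a limit, 21 of the 28 analysed members were above 0, against 56.1% of all 19938 genes. The members' median was then 0.43 beside 0.06 over all genes. The difference of responses uses all 4 arrays and thus shares them with every comparison above.

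**Figure D4:**
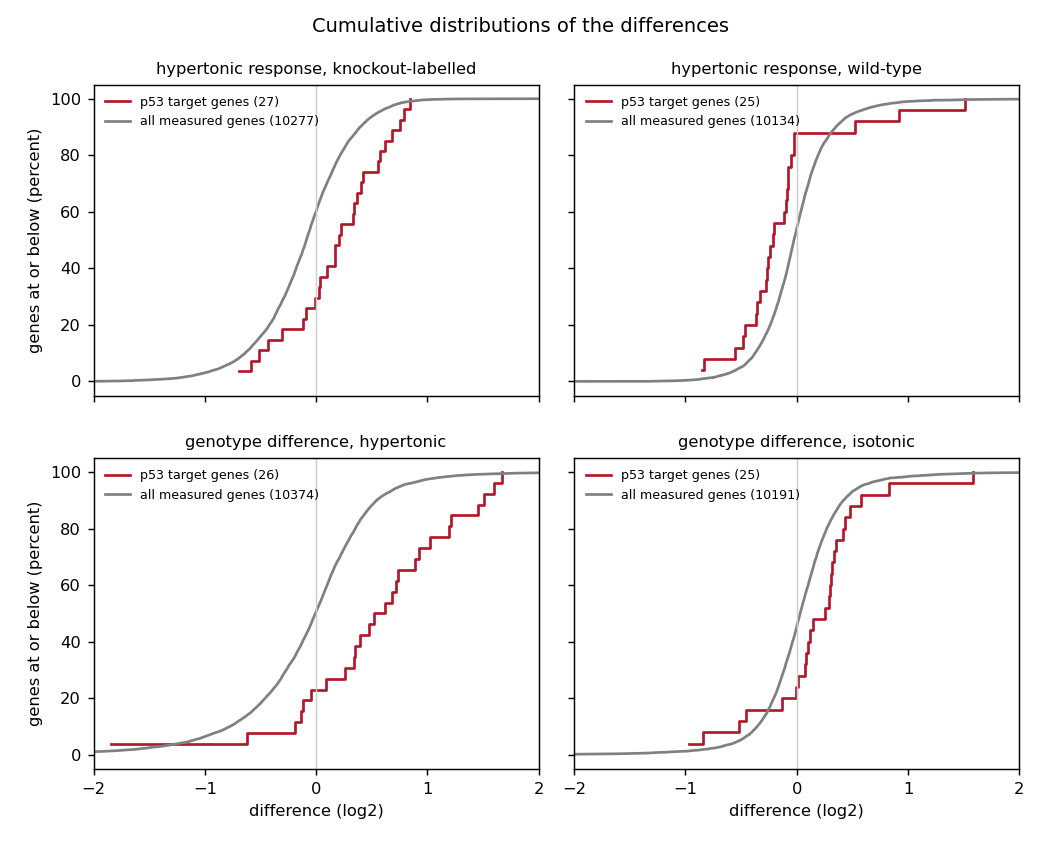
Cumulative percent of genes (vertical axis) at or below each log2 difference (horizontal axis, drawn from -2 to 2) for the measured p53 target genes (red) and all measured genes (grey) in the 4 comparisons between arrays. The red curve lies right of the grey curve at the median in knockout-labelled cells (0.21 against -0.09), left of it in wild-type cells (-0.21 against -0.02), and farthest right for the hypertonic genotype difference (0.57 against -0.01).

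The promoter windows were compared with those of all genes. A p53 decamer was found in 9 of the 25 member windows (36.0%), against 8.36% of all 32851 RefSeq windows. The members were listed as genes that p53 activates, so shares of decamers describe that list and not the arrays. The 9 windows belong to Aen, Ccng1, Ei24, Gadd45a, Gtse1, Mdm2, Polk and Sesn1, and the windows of Aen overlap and share their match. It began at -186 in Mdm2, -185 in Ccng1, 10 in Aen and -173 in Sesn1, counted from the annotated start as 0. Eda2r and Dyrk3, which were also 2-fold higher in knockout-labelled hypertonic cells, had no match in their windows. No member window held a pair of exact decamers within 13 bases, as did 0.0731% of all windows.

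With 1 letter allowed off the pattern of a pair of adjacent decamers, a search added after the windows were read, Ccng1 and Gtse1 matched. That was 8.0% of member windows against 0.0883% of all windows. The matches, with the exact decamer in capitals, were as follows.
Ccng1: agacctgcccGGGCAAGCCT
Gtse1: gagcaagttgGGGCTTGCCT
The Ccng1 match lies within the window printed above, from -195, and the Gtse1 match begins at -1. The genotype difference in hypertonic medium was 1.45 for Ccng1 and 0.73 for Gtse1.

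Other motifs were searched on both strands. The tonicity element bound by NFAT5 (TonE) was in 0 of 25 member windows, against 4.96% of all windows. The GC box (GGGCGG) was in 72.0% of member windows against 35.7% of all, the CCAAT box (CCAAT) in 56.0% against 37.4%, and the AP-1 site (TGANTCA) in 4.0%, the window of Fas, against 7.81%. GC boxes can overlap each other. A match describes letters and not binding, and elements outside these windows, such as those in the first intron of Mdm2, are not read here.

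**Figure D5:**
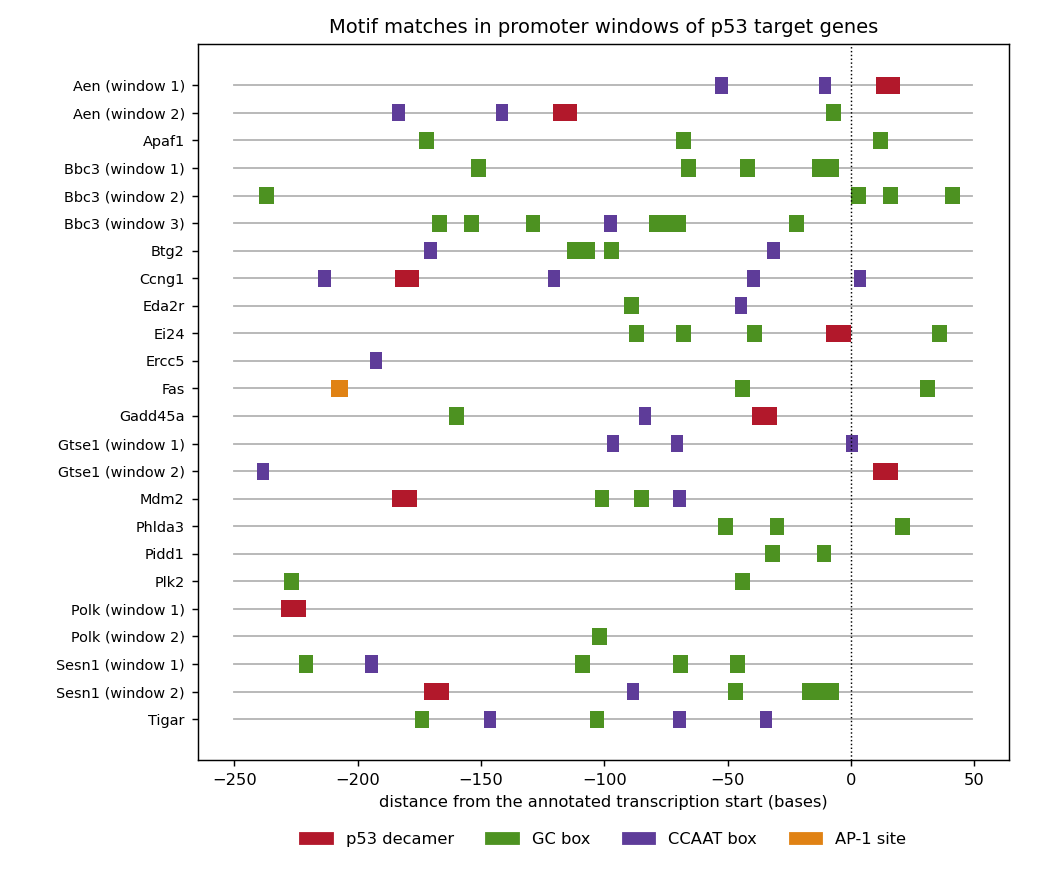
Positions of motif matches (coloured blocks) along 24 promoter windows of 18 p53 target genes, in bases from the annotated start (dotted line at 0). The window of Dyrk3 held no match and is not drawn, and red p53 decamers appear in 9 windows.

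Of 21 measured genes of a list of p53 regulators, none was at least 2-fold higher in any comparison, as were 0.379% to 2.57% of all measured genes, so a count of 0 is near the share of all genes. Atr and Prkdc, kinases of the DNA damage response, were at least 2-fold lower in the knockout-labelled response, against 3.08% of all measured genes, at -1.27 and -1.06, with Prkdc below the dim limit on the knockout-labelled hypertonic array. Hipk2, a kinase that phosphorylates p53, was lower, at -1.64, in knockout-labelled than in wild-type hypertonic cells and had a difference of responses of -1.16. It read 6.36 (knockout-labelled, hypertonic), 7.21 (knockout-labelled, isotonic), 7.999 (wild-type, hypertonic) and 7.69 (wild-type, isotonic).

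Mdm4, the relative of Mdm2 that blocks p53 activity, spanned 7.73 (wild-type, isotonic) to 7.97 (knockout-labelled, isotonic). Cdkn2a, whose Arf product holds Mdm2 back, was bright on all arrays, at 9.19 (knockout-labelled, hypertonic), 9.37 (knockout-labelled, isotonic), 9.85 (wild-type, hypertonic) and 9.45 (wild-type, isotonic). Ppm1d, a phosphatase induced by p53 that turns the response off, read 7.62 (knockout-labelled, hypertonic), 7.49 (knockout-labelled, isotonic), 8.08 (wild-type, hypertonic) and 7.49 (wild-type, isotonic). As for Sesn1, its wild-type hypertonic signal was the highest, here by a wild-type response of 0.60.

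A further list of 30 p53 targets, chosen like the members with earlier results known, gave 23 measured genes in the hypertonic genotype comparison. Of these, 4 were at least 2-fold higher in knockout-labelled cells, against 2.57% of all measured genes, and 2 lower, against 6.43%. The higher ones were the growth factor gene Kitl (1.85), the polo-like kinase gene Plk3 (1.75), the iron reductase gene Steap3 (1.51) and the phosphomannomutase gene Pmm1 (1.0025). Sulf2 and Thbs1 were lower, at -1.26 and -1.06. The list's median was 0.27, beside 0.57 for the members and -0.01 over all measured genes.

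Plk3 and Steap3 had the order of Mdm2. Plk3 read 7.36 (knockout-labelled, hypertonic), 6.57 (knockout-labelled, isotonic), 5.61 (wild-type, hypertonic) and 6.20 (wild-type, isotonic). Kitl differed by genotype in isotonic medium too (2.38), as did Ephx1 (1.0024). Those were the 2 of 23 measured genes at least 2-fold higher there, against 1.59% of all measured genes. In the difference of responses Plk3 was at least 2-fold positive (1.38), against 1.41% of all measured genes. Sulf2 (-1.39) and Ddit4 (-1.21) were at least 2-fold negative there, against 5.53%. In the hypertonic response of either genotype, no gene of the list passed 2-fold, and Cd82 (-0.83, knockout-labelled) and Sulf2 (0.71, wild-type) came closest. Of all measured genes, 0.379% were 2-fold higher and 3.08% lower in the knockout-labelled response. In the wild-type response 1.01% were higher and 0.414% lower, so a count of 0 is near the share of all genes.

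Among the cell cycle genes that p53 represses through p21 and the DREAM complex, 0 of 19 measured genes passed 2-fold in any comparison. Over all measured genes 0.379% to 2.57% were 2-fold higher and 0.414% to 6.43% lower, so a count of 0 among 19 is near the share of all genes. Their median was -0.19 in the knockout-labelled response, with 16 below 0 against 60.1% of measured genes, and -0.004 in the wild-type response. Among the largest were Cdc25c (-0.38) and Top2a (-0.33) in the knockout-labelled response and Birc5 (-0.35) in the wild-type response. The 11 measured housekeeping genes had medians of 0.01 in the knockout-labelled and -0.03 in the wild-type response, and 0.04 in the hypertonic genotype comparison.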

How the data were processed

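Log2 signals, 1 value per probe set and array, were used as the authors deposited them. The log2 scale was read from the values. Per the submitters' processing notes MAS5 was used, with no version; the sources used here state neither a background correction nor a normalization. The design text of the series says that 4 samples of each condition were pooled for 1 array. The number of arrays limits the precision.

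Of 35557 probe sets, 21789 had 1 gene symbol in the platform annotation, 1621 had several and 12147 had none, and only the first were used. The brightest probe set stood for a gene, and each member had 1. Differences were computed between arrays, with 2-fold as the limit for a count and no test. The counting step was tested on simulated data.

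The members and lists were chosen with earlier results of these data known. Outside the members, the genes that could be named were Nfat5, Mdm4, Ppm1d, Cdkn2a and, from each list and comparison, any gene past 2-fold together with the 2 that differed most in size. Xist, the genes of the marker lists and a few further genes were named after their values were seen. Motifs were searched on both strands of RefSeq windows, GRCm38.p6. Alternatives were quantile normalization, cyclic loess, centring, dropping the dim limit or raising it to the 75th percentile, averaging the probe sets of a gene, and a 1.5-fold limit. R 4.3.3 with limma 3.58.1 made the normalizations; the rest used numpy 2.4.6, pandas 2.3.3, scipy 1.17.1, matplotlib 3.10.9 and Python 3.11.15.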

Additional observations from a re-analysis of the deposited data

Results flagged for a closer look

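The following 11 members had hypertonic responses of opposite sign in the genotypes, each past the SD between probe sets of a gene. With 1 array per group the difference was not tested. The difference of responses, knockout-labelled minus wild-type, was positive for 9 members: 1.41 for Aen, 1.14 for Ccng1, 0.93 for Gadd45a, 0.87 for Dyrk3, 0.85 for Eda2r, 0.78 for Phlda3, 0.75 for Polk, 0.71 for Perp and 0.59 for Zmat3. A positive pair of this kind was found in 6.26% of all 10542 measured genes. The difference was negative for 2 members, at -1.94 for Sesn1 and -1.03 for Ddb2. A negative pair of this kind was found in 10.4% of measured genes, so 2 of 27 members is near the share of all genes. Eda2r read below the dim limit on 3 of the 4 arrays, so its value is poorly determined.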

How the results depend on the processing

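No paired analysis was possible because each group was 1 array. No difference of a single member changed by more than the SD between probe sets under quantile normalization, cyclic loess or centring, in 420 values. Averaging probe sets could change no member, since each had 1, and is not counted. Of 85 other alternative counts and medians over the members, 67 stayed within 1.5 times the count or within that SD. No median changed sign, and a count cannot. Counts of response signs and of the highest or lowest array were not retaken under other normalizations. Some small responses changed sign after quantile normalization. The wild-type response of Apaf1 went from -0.02 to 0.009 and that of Xpc from -0.03 to 0.004. In knockout-labelled cells Btg2 went from -0.09 to 0.02, Pidd1 from -0.005 to 0.08 and Xpc from -0.12 to 0.02.

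With a limit of 1.5-fold, the counts became 5 higher (4.28% of all measured genes) and 2 lower (12.0%) in the knockout-labelled response, and 2 higher (4.12%) and 2 lower (3.30%) in the wild-type response. They became 13 higher (8.72%) and 2 lower (15.1%) in the hypertonic genotype comparison, 2 higher (4.92%) and 2 lower (3.87%) in the isotonic one, and 12 higher (7.76%) in the difference of responses. With the dim limit at the 75th percentile, which leaves 11 or 12 members in these comparisons, the median of the knockout-labelled response was 0.40. The hypertonic genotype comparison then had 4 members higher, against 2.53% of measured genes, and the difference of responses had 1 higher (1.20%) and 1 lower (4.76%). Quantile normalization, cyclic loess and centring each gave 1 member lower in the isotonic genotype comparison, Gadd45a, against 1.30% to 1.36% of measured genes. Quantile normalization and centring left 1 member lower in the difference of responses, Sesn1, against 4.67% and 4.79% of measured genes, because Ddb2 moved inside 2-fold.

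With 1 pooled array per group the differences carry no replicate error, and signals near the dim limit, as for Bbc3, Eda2r, Fas, Pidd1 and Ptprv, limit what can be read from them.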
